A study of Rattus norvegicus with 2 samples.

Results

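The genes described here are the PDGF ligands Pdgfa, Pdgfb, Pdgfc and Pdgfd, the PDGF receptors Pdgfra and Pdgfrb, and Cspg4, which encodes the NG2 proteoglycan. They were taken from the deposited table by gene symbol, and 7 of its 17455 genes matched. RNA was sequenced from rat oligodendrocyte precursor cells (OPCs), wild type by label, in 2 libraries. The Slit1 library came from cells transfected with a Slit1 construct by a Lonza kit, and the control library from cells transfected with vector by the same kit. Both held about equal numbers of estimated read counts, 18998770 in Slit1 and 18817462 in control. How many cells took up the construct, when they were harvested and how old the animals were is left unstated by the labels. As a check of the label, Slit1 itself, a secreted ligand of Robo receptors, stood at 229.7 TPM (transcripts per 1000000, a level per length) in the Slit1 library and 1.70 TPM in the control library. With 1 library per group no difference below has a replicate check, and no p-value was computed.

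PDGF ligands are secreted dimers that bind and pair receptor tyrosine kinases on the target cell. In the developing central nervous system, PDGF-A from neurons and astrocytes acts on PDGFRα of OPCs, drives their division and holds back their differentiation. PDGFRα and NG2 are the classical surface markers of OPCs, and both are lost as the cells become oligodendrocytes. PDGF-A and PDGF-B are the classical ligands, while PDGF-C and PDGF-D carry an N-terminal CUB domain that a protease must remove before they can bind.

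The 7 genes were all above the floor of 1 TPM used for comparison, between 4.68 and 87.6 TPM. Of them, 0 differed by 1.5-fold or more between the Slit1 and control libraries on the log2(TPM + 1) scale. Over the 13175 genes that averaged 1 TPM or more, 8.55% did (3.72% higher and 4.83% lower in Slit1), and at a limit of 2-fold 1.89% did (1.24% higher and 0.645% lower). Of the genes past 1.5-fold, 43.5% were higher in TPM, and between 52.5% and 54.5% were higher in the 4 other scalings or with the median gene set to 0. The median difference of the 7 genes was 0.03 log2 units, Slit1 minus control, against -0.05 over all genes tested. Within this narrow range, Pdgfc and Pdgfd were the lowest, at -0.47 and -0.50 log2 units, and Pdgfa was the highest, at 0.22.

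**Figure D1:**
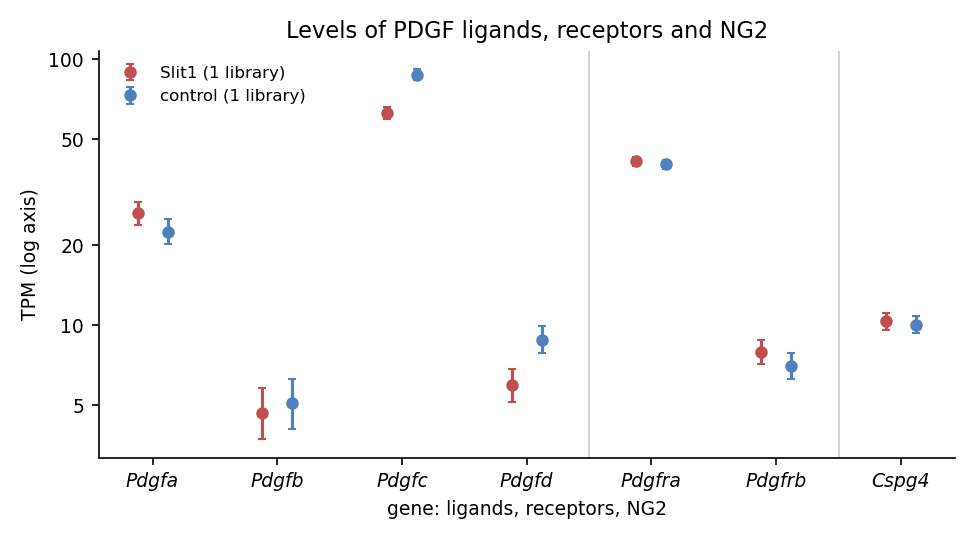
TPM (log axis) of the 4 ligands, the 2 receptors and Cspg4 in the Slit1 library (left point of each pair) and the control library (right point). Points are single libraries and bars are exact 95% Poisson intervals of the count, which cover counting error only. Pdgfc stands at 62.9 TPM in Slit1 and 87.6 TPM in control, while the points of Pdgfra and Cspg4 lie nearly level.

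Upstream sequences are shown for Pdgfa and Pdgfb only, because theirs alone, among those found, lay outside every annotated gene. Of the 7 genes, 6 matched an entry in the RefSeq promoter table of build GRCr8, and Pdgfrb did not. The 250 bases before the annotated start lay outside every annotated gene for 2 of them, Pdgfa at chr12:20759116-20759365 on the + strand and Pdgfb at chr7:113438344-113438593 on the - strand. For Pdgfra, Pdgfc and Pdgfd the window reached into the gene itself, and for Cspg4 into another gene, so these are not shown. Capitals mark matches, on either strand, to GGGCGG (GC box, reverse CCGCCC) or CAGCTG (an E-box of the kind bound by basic helix-loop-helix factors).
Pdgfa: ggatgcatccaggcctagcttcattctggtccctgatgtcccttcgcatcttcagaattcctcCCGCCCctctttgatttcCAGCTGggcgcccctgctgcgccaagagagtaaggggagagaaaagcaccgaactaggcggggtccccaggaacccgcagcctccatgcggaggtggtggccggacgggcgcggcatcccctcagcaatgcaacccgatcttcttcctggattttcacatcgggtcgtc
Pdgfb: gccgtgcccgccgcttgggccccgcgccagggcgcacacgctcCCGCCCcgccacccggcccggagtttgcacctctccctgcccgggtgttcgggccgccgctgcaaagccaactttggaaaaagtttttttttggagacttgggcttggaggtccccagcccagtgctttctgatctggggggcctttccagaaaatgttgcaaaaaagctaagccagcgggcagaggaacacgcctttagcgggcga
Pdgfa held 1 GC box, 187 bases before the start, and 1 CAGCTG E-box, 169 bases before it. Pdgfb held 1 GC box, 207 bases before the start, and no CAGCTG. Of 33469 windows of the same length in the table, 30.5% held a GC box and 11.97% a CAGCTG. Neither window held CCAAT (34.0% of all windows), TATAAA (12.9%) or ACAAAG, a core bound by Sox factors (16.3%), on either strand. The GC content was 60.8% in Pdgfa and 63.6% in Pdgfb, against a median of 51.2% over all windows. These matches describe the letters of the window only.

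Pdgfc, which encodes a CUB-domain ligand that acts mainly through PDGFRα, was the most abundant of the 7 genes per length in both libraries. Its level was 62.9 TPM in Slit1 (1441 estimated counts) and 87.6 TPM in control (1800 estimated counts). The TPM ratio, Slit1 over control, was 0.718, with an exact 95% counting interval of 0.669 to 0.769, so that Pdgfc was 1.39-fold lower in the Slit1 library. Of all genes tested, 8.25% had a lower log2 difference than Pdgfc. The size of the difference depended on the unit: the ratio was 0.740 in FPKM, which is also scaled by length, and 0.793 in CPM, which is the count scaled by the library total alone. The transcript length implied by the deposited counts and FPKM was 2.55 kb in Slit1 and 2.38 kb in control, and this length ratio of 1.07 exceeded that of 96.2% of all genes tested. An implied length moves when reads are assigned to other transcript forms of a gene, and the table holds no values per transcript.

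Pdgfd encodes the other CUB-domain ligand, which acts mainly through PDGFRβ. It measured 5.96 TPM in Slit1 (196 estimated counts) and 8.84 TPM in control (282 estimated counts). The TPM ratio was 0.674 (counting interval 0.559 to 0.812), or 1.48-fold lower as a plain TPM ratio and just short of 1.5-fold. Its implied length was nearly equal, 3.66 kb in Slit1 and 3.69 kb in control, and the ratio was 0.689 in CPM and 0.695 in FPKM. Both CUB-domain ligand genes were thus lower in the Slit1 library under each of the 5 scalings tried, with counting intervals wholly below 1. These 5 are not independent checks. Ratios in TPM and FPKM differ only by a constant shared by all genes, and so do those in CPM, TMM and median of ratios. Counting intervals lay wholly below 1 for 33.5% of all genes tested and wholly above 1 for 22.3%, or 55.8% in all, so that an interval off 1 is common between these libraries. Of the 7 genes, 2 lay wholly below 1 in TPM and 1, Pdgfa, wholly above.

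Pdgfa, the ligand that maintains OPCs through PDGFRα, measured 26.4 TPM in Slit1 (388 estimated counts) and 22.5 TPM in control (333 estimated counts). The TPM ratio of 1.17 had a counting interval of 1.01 to 1.36, and in CPM the ratio of 1.16 had an interval of 0.995 to 1.34, which spans 1. The implied length of Pdgfa was 1.64 kb in Slit1 and 1.71 kb in control, with a smaller ratio in 6.42% of genes tested. Pdgfb, which binds both receptors, was the scarcest of the 7 genes. It measured 4.68 TPM in Slit1 (83 estimated counts) and 5.09 TPM in control (84.1 estimated counts). The ratio of 0.919 had a counting interval of 0.671 to 1.26, so counting error alone covered ratios on both sides of 1 at this depth.

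Added together, the 4 ligand genes came to 99.9 TPM in Slit1 and 124.0 TPM in control, a ratio of 0.805. The classical ligands Pdgfa and Pdgfb summed to 31.1 TPM in Slit1 and 27.6 TPM in control, and the CUB-domain ligands Pdgfc and Pdgfd to 68.8 TPM in Slit1 and 96.4 TPM in control. Pdgfc made up 62.9% of the ligand transcripts in Slit1 and 70.6% in control, and Pdgfa 26.4% in Slit1 and 18.1% in control. Pdgfc was 2.38 times as abundant as Pdgfa per length in Slit1 (counting interval 2.13 to 2.67) and 3.89 times in control (3.46 to 4.39). These intervals do not overlap, but they cover counting error only. The pair joins the highest difference of the 7 genes (Pdgfa) to one near the lowest (Pdgfc), so the shift restates those differences. Over all genes tested, 55.8% had a counting interval off 1 between the libraries. The sums, shares and proportions here are in TPM and so depend on the implied lengths. The length ratio, Slit1 over control, was 1.07 for Pdgfc and 0.956 for Pdgfa. In CPM, Pdgfc stood at 75.8 in Slit1 and 95.7 in control, and Pdgfa at 20.4 in Slit1 and 17.7 in control. The shift between the 2 genes was thus smaller in CPM than in TPM. Pdgfc and Pdgfd kept nearly the same proportion to each other, 10.5 to 1 in Slit1 (9.08 to 12.3) and 9.91 to 1 in control (8.74 to 11.3).

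**Figure D2:**
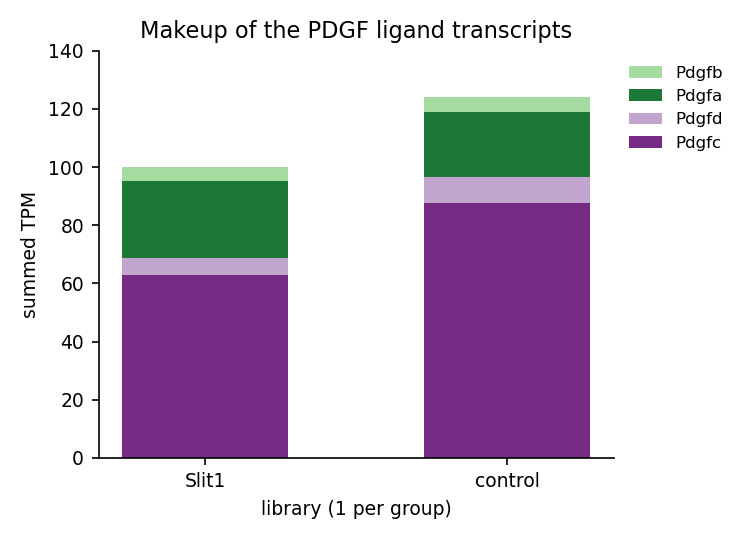
Stacked TPM of the 4 PDGF ligand genes in the Slit1 library (left bar) and the control library (right bar), from 0. The bars sum to 99.9 TPM in Slit1 and 124.0 TPM in control, and the Pdgfc segment is the one that differs most. In CPM, which is not scaled by length, Pdgfc differed less between the libraries.

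Pdgfra, the receptor that marks OPCs, was nearly level between the libraries. It measured 41.4 TPM in Slit1 (2389 estimated counts) and 40.3 TPM in control (2239 estimated counts). The TPM ratio was 1.03 (counting interval 0.970 to 1.09), 61.7% of all genes tested had a lower log2 difference, and the implied length was 6.42 kb in Slit1 and 6.44 kb in control. The ratio was 1.06 in FPKM and CPM, where the interval reached 1.0002 to 1.12 in FPKM and 0.997 to 1.12 in CPM. The counting intervals under all 5 scalings lay between 0.970 and 1.13, well inside the 1.5-fold limit.

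Pdgfrb encodes the receptor for PDGF-B and PDGF-D and is best known from pericytes and vascular smooth muscle. It measured 7.94 TPM in Slit1 (366 estimated counts) and 7.06 TPM in control (315 estimated counts), a ratio of 1.12 with a counting interval of 0.965 to 1.31. Pdgfra was 5.21 times as abundant as Pdgfrb per length in Slit1 (4.67 to 5.83) and 5.70 times in control (5.06 to 6.44), intervals that overlap. Pdgfra thus made up 83.9% of the receptor transcripts in Slit1 and 85.1% in control.

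Cspg4, whose NG2 product is a transmembrane chondroitin sulfate proteoglycan that binds PDGF-AA and serves as an OPC surface marker, measured 10.3 TPM in Slit1 (747 estimated counts) and 10.1 TPM in control (699 estimated counts). Its ratio of 1.03 had a counting interval of 0.925 to 1.14. The proportion of Pdgfra to Cspg4 was 4.0 in both libraries, with intervals of 3.68 to 4.35 in Slit1 and 3.67 to 4.36 in control. In the RefSeq annotation, Cspg4 overlaps one gene that the deposited table lists, Odf3l1, with 6 estimated counts in Slit1 and 3 in control. Whether reads were counted by strand is left unstated by the labels.

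**Figure D3:**
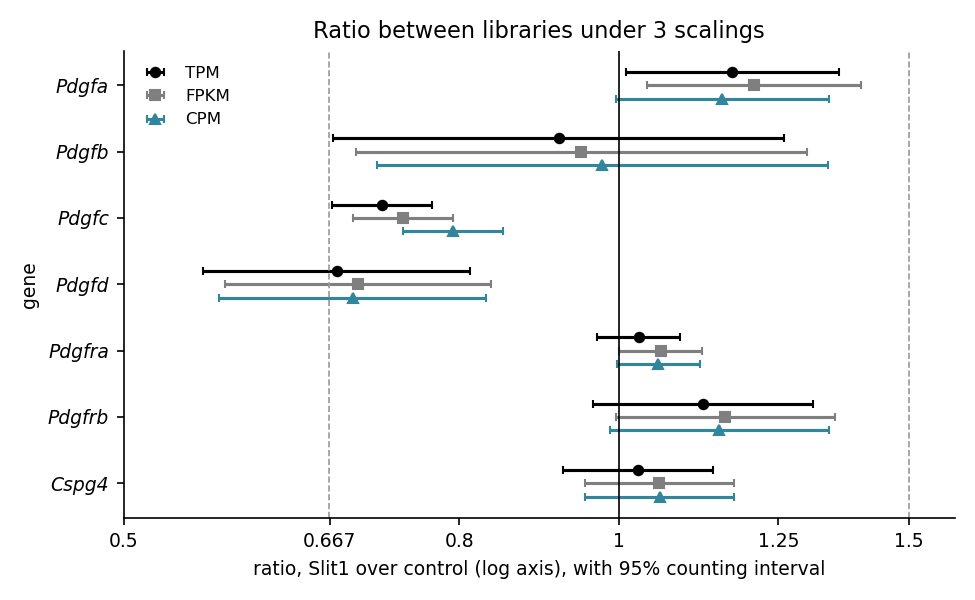
Ratio of the Slit1 over the control library (log axis) for each gene in TPM (circles), FPKM (squares) and CPM (triangles), with exact 95% counting intervals as bars. Dashed lines mark a 1.5-fold difference in either direction. Pdgfc and Pdgfd lie below 1 in all 3 units, and Pdgfra and Cspg4 lie close to 1.

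In the Slit1 library the order of levels, from high to low, was Pdgfc, Pdgfra, Pdgfa, Cspg4, Pdgfrb, Pdgfd and Pdgfb. In the control library Pdgfd stood above Pdgfrb, and the order was otherwise alike. The Poisson intervals of neighbours overlapped for Pdgfd and Pdgfb in Slit1, and for Cspg4 and Pdgfd and for Pdgfd and Pdgfrb in control. The receptor Pdgfra had a higher level than 64.3% of the genes tested in Slit1 and 62.5% in control. Pdgfc exceeded 74.9% of genes in Slit1 and 81.8% in control, and Pdgfb exceeded 15.6% in Slit1 and 16.2% in control. Pdgfc stood at 1.52 times the level of Pdgfra in Slit1 (counting interval 1.42 to 1.62) and 2.18 times in control (2.04 to 2.32), and Pdgfa at 0.637 times in Slit1 (0.571 to 0.710) and 0.559 times in control (0.497 to 0.627). The genes with a symbol whose levels lay nearest to Pdgfra over the 2 libraries, by Euclidean distance of log2(TPM + 1), were Nif3l1 (distance 0.005) and Dguok (0.009), and nearest to Cspg4 were Atxn7l1 (0.011) and Wdr5b (0.015). With only 2 libraries, 95 genes lay within a distance of 0.1 of Pdgfra.

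Downstream of the receptors, adaptors, kinases and phosphatases link PDGF binding to Ras, MAP kinase and PI3 kinase signalling. All 40 listed genes of this kind passed the floor. In the Slit1 library 0 of them were higher by 1.5-fold or more and 3 were lower by that much, against 3.72% higher and 4.83% lower over all genes. The median was -0.11 log2 units, against -0.05 over all genes. One of the lower genes was Yes1, a Src-family kinase, which measured 21.8 TPM in Slit1 and 39.98 TPM in control (1.83-fold lower, interval 1.68 to 1.999). Another Src-family kinase, Fyn, was the highest of the list at 563.6 TPM in Slit1 and 388.4 TPM in control, a TPM ratio of 1.45 (interval 1.41 to 1.49) and a CPM ratio of 1.55. It was named after its value was seen.

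Of 12 genes that process PDGF or bind it outside the cell, 1 was lower by 1.5-fold or more and 0 were higher. Over all genes 4.83% were lower and 3.72% higher, and a list this small cannot tell 1 gene from that share. The median was -0.17 log2 units, against -0.05 over all genes. The lower gene was Plau, the urokinase plasminogen activator, with 7.12 TPM in Slit1 and 12 TPM in control (1.69-fold lower, counting interval 1.37 to 2.09). Plat, the tissue plasminogen activator that cuts the CUB domain from PDGF-C, measured 260.7 TPM in Slit1 and 342.9 TPM in control, a ratio of 0.760 (interval 0.734 to 0.787), and was named after its value was seen. Of the 14 listed binding partners and shedding enzymes of NG2, 13 passed the floor, of which 1 was lower and 0 were higher. Their median was -0.12, to be read against the same shares and median over all genes. The lower gene was Adam10, a membrane metalloprotease that sheds the NG2 ectodomain, at 44.8 TPM in Slit1 and 71.1 TPM in control (1.59-fold lower, interval 1.49 to 1.69).

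**Figure D4:**
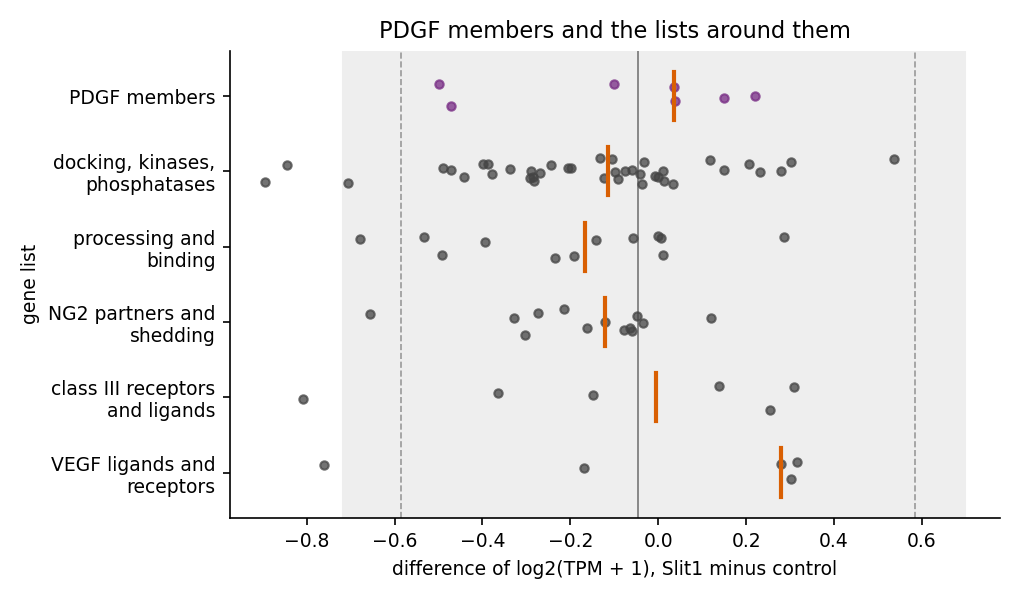
Difference of log2(TPM + 1), Slit1 minus control, for the 7 PDGF and NG2 genes (top) and for each tested gene of 5 lists around them, with the list's median as a vertical bar. The grey band holds the central 95% of all genes tested, the thin line is their median of -0.05, and dashed lines mark 1.5-fold. All 7 genes lie inside the dashed lines.

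The label OPC was compared with cell type markers. The 10 OPC and pan-lineage genes summed to 2618 TPM in Slit1 and 2616 TPM in control, led by Ptprz1, a receptor phosphatase (688 TPM in Slit1 and 913.6 TPM in control), and the lineage factor Olig1 (686 TPM in Slit1 and 730.1 TPM in control). The level sums hide differences in both directions: 3 of the 10 passed the 1.5-fold limit upward, against 3.72% of all genes, and 1 downward, against 4.83%. The higher genes were the lineage factor Sox10 (218 TPM in Slit1 and 71.4 TPM in control), the receptor gene Gpr17 (263 TPM in Slit1 and 109.8 TPM in control) and the matrix proteoglycan gene Vcan (40.1 TPM in Slit1 and 22.7 TPM in control). The lower gene was Cspg5, another proteoglycan gene (204.9 TPM in Slit1 and 314 TPM in control). These 4 were named after their values were seen. With TMM or median-of-ratios factors, in CPM or with the median gene set to 0, 4 genes were higher and 0 lower, and in FPKM 3 were higher and 0 lower. Astrocyte markers were also abundant in both libraries: all 7 were measured, and they summed to 10356 TPM in Slit1 and 9231 TPM in control. Gfap, an astrocyte intermediate filament, reached 6130 TPM in Slit1 and 4694 TPM in control, far above Pdgfra, and Slc1a3, a glutamate transporter, 1417 TPM in Slit1 and 1610 TPM in control. By the same limit 0 of the 7 astrocyte markers were higher and 1 was lower, against 3.72% higher and 4.83% lower over all genes. The lower marker was the gap junction gene Gja1 (295.7 TPM in Slit1 and 506.2 TPM in control), named after its value was seen. In bulk RNA, fewer cells of a type and less RNA per cell cannot be told apart, and the part of astrocyte-type cells in the levels of Pdgfa, Pdgfc and the receptors was not tested.

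The mural markers that usually accompany Pdgfrb gave 9 listed genes, of which 4 passed the floor. Their sum was 106.4 TPM in Slit1 and 68.8 TPM in control, most of it Tagln, an actin-binding protein (79.9 TPM in Slit1 and 36.2 TPM in control). Notch3 came next at 18.2 TPM in Slit1 and 22.9 TPM in control. Without Tagln the other 8 summed to 26.5 TPM in Slit1 and 32.6 TPM in control. Acta2 (0.25 TPM in Slit1 and 0.60 TPM in control), Des (0.37 TPM in Slit1 and 0.27 TPM in control) and Abcc9 (0.07 TPM in Slit1 and 0.11 TPM in control) were near 0 in both libraries. Myh11 (4.64 TPM in Slit1 and 5.96 TPM in control) and Kcnj8 (2.02 TPM in Slit1 and 2.01 TPM in control) passed the floor. Acta2, Des, Abcc9, Myh11 and Kcnj8 were named after their values were seen. Fibroblast markers summed to 14.5 TPM in Slit1 and 15.7 TPM in control over 5 listed genes, led by Col1a2 (9.94 TPM in Slit1 and 11.7 TPM in control) and Col1a1 (3.85 TPM in Slit1 and 3.82 TPM in control). Neuron markers summed to 78.0 TPM in Slit1 and 67.1 TPM in control over 8 genes, led by Tubb3 (46.5 TPM in Slit1 and 33.6 TPM in control) and Stmn2 (14.3 TPM in Slit1 and 12.1 TPM in control). Of the 7 tested neuron markers, 1 was lower by 1.5-fold and 0 were higher, against 4.83% lower and 3.72% higher over all genes. The list's median of -0.22 log2 units had the opposite sign to the difference of its sums. Nefl (0.67 TPM in Slit1 and 1.75 TPM in control), Rbfox3 (3.23 TPM in Slit1 and 4.70 TPM in control), Snap25 (4.0 TPM in Slit1 and 5.27 TPM in control) and Syt1 (5.46 TPM in Slit1 and 6.54 TPM in control), named after their values were seen, had lower values in Slit1. The counting intervals of Snap25 (0.549 to 1.04) and Syt1 (0.689 to 1.01) spanned 1. Gad1 was higher, at 3.84 TPM in Slit1 and 2.91 TPM in control, with an interval of 0.974 to 1.79 that spans 1. It was also named after its value was seen. Endothelial markers (6 genes, led by Vwf at 0.84 TPM in Slit1 and 0.69 TPM in control and Kdr at 0.80 TPM in Slit1 and 0.24 TPM in control) summed to 2.22 TPM in Slit1 and 1.45 TPM in control. Microglia markers (5 genes, led by Tmem119 at 0.68 TPM in Slit1 and 0.44 TPM in control and Aif1 at 0.50 TPM in Slit1 and 0.19 TPM in control) summed to 1.42 TPM in Slit1 and 1.11 TPM in control, and no gene of these last lists passed the floor.

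**Figure D5:**
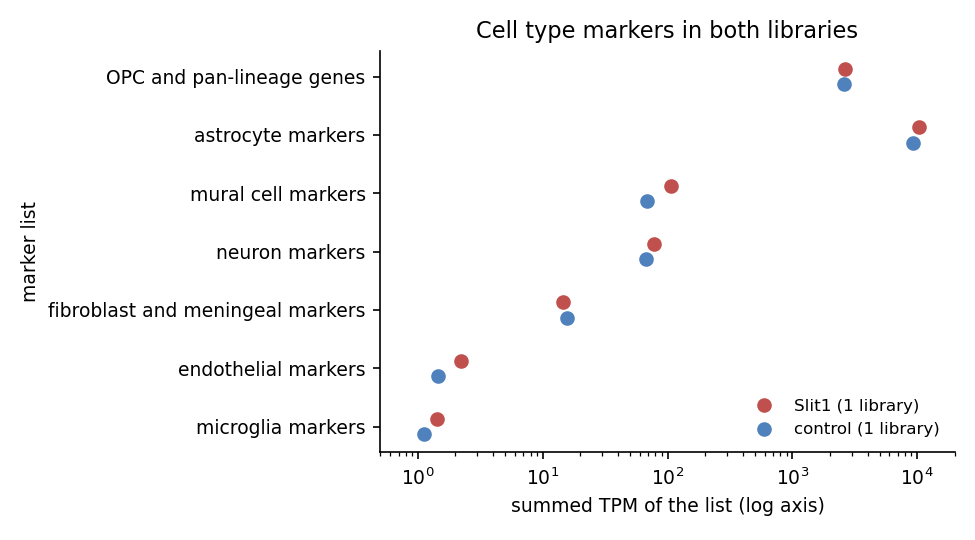
Summed TPM (log axis) of 7 marker lists in the Slit1 library (upper point of each pair) and the control library (lower point). Astrocyte markers sum to 10356 TPM in Slit1 and 9231 TPM in control, above the OPC and pan-lineage genes, while endothelial and microglia markers lie between 1.11 and 2.22 TPM.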

How the data were processed

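RNA-seq values of 2 libraries, 1 per group, were read from the table the authors deposited. Per the file headers it gives FPKM, TPM and read counts; the deposited TPM were scaled by the authors to 1000000 per library, the deposited FPKM sum to 473673 in Slit1 and 459452 in control, and the deposited read counts are estimated counts, of which 31.4% in Slit1 and 26.1% in control lie within 0.01 of a whole number. Per the submitters' processing notes the genome was mRatBN7.2. Aligner, counter, annotation, strand handling and filters were not given in the sources used here. Value columns of other samples numbered 0.

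Differences were taken as log2(TPM + 1) in Slit1 minus the same in control, over genes averaging 1 TPM or more. The pseudocount of 1 makes changes of scarce genes look smaller. Ratios are plain TPM ratios with exact (Clopper-Pearson) 95% intervals from counts rounded to whole numbers. Intervals cover counting error only, not the spread between cultures. A count of 0 allows 3 counts, worth 0.132 TPM in Slit1 and 0.137 TPM in control at the median gene. Implied length is the count divided by FPKM and library total. Scripts used Python 3.11.15, scipy 1.17.1 and edgeR 4.0.16 (for TMM factors only), and the interval and fold calculations were run on simulated Poisson counts. Such counts follow the model on which the intervals rest and hold no spread between cultures, so this checks the arithmetic only.

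The 7 genes and 12 lists were chosen with earlier results of these data known. By rule the text names all 7 genes, the up to 4 largest differences past 1.5-fold per pathway list, the 2 most abundant genes per cell type list, and the 2 genes nearest to Pdgfra and to Cspg4; others are marked. Genes that the rule takes in but the text omits are not reported here. Marker genes Rgs5, Lum and Cx3cr1 were not analysed here. Of the table's gene numbers, 17211 were found in the RefSeq table of GRCr8, used for names, overlaps and upstream sequences. The alternatives were pseudocounts of 0.1 and 5, no floor and a floor of 5 TPM, a 2-fold limit, the median gene set to 0, FPKM, CPM, TMM and median-of-ratios factors.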

Additional observations from a re-analysis of the deposited data

How the results depend on the processing

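Each of the 7 genes kept the sign of its difference under the 7 alternative scalings and pseudocounts, and 0 of 7 reached the fold limit under any. Several of these settings rescale the same values by a constant, so their agreement is a limited check. The log2 difference ranged from -0.48 to -0.32 for Pdgfc, -0.56 to -0.34 for Pdgfd, 0.19 to 0.27 for Pdgfa, 0.04 to 0.09 for Pdgfra, 0.10 to 0.21 for Pdgfrb, 0.03 to 0.09 for Cspg4 and -0.12 to -0.01 for Pdgfb. The order of levels in each library was the same in counts per shared implied length; FPKM differs from TPM within a library only by a constant and cannot test it. Over all genes, 490 were at least 1.5-fold higher and 637 lower, so that 43.5% of the called genes were higher. That share was 53.9% with TMM factors, 54.5% with median-of-ratios factors and in FPKM (361 lower), 52.5% in CPM and 54.3% with the median gene set to 0. With a pseudocount of 5, 258 genes were higher and 277 lower, and at a 2-fold limit 164 and 85. Among PDGF signalling genes, 1 (Fyn) was higher with TMM or median-of-ratios factors or in CPM, against 0 in TPM, and 0 were lower at a 2-fold limit, against 3. The number of lower processing and binding genes, 1 in TPM, was 3 with a pseudocount of 0.1, 2 with TMM or median-of-ratios factors or in CPM, and 0 with a pseudocount of 5, in FPKM or at 2-fold. Lower class III genes numbered 2 with a pseudocount of 0.1 and 0 at 2-fold, against 1. Lower VEGF genes numbered 0 with a pseudocount of 5, in FPKM, at 2-fold or with a floor of 5 TPM, against 1, and lower NG2 partners 0 at 2-fold, against 1. In the cell type lists, the 1 lower OPC and pan-lineage gene became 0 under the 5 other scalings or centring and at 2-fold, the 1 lower neuron marker 0 with a pseudocount of 5, in FPKM, at 2-fold or with a floor of 5 TPM, and the 1 lower astrocyte marker 0 at 2-fold. The cause was not tested. No paired analysis was possible because each group held 1 library, and for the same reason no library could be left out. Depth limits Pdgfb most, at under 100 counts per library.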

Other observations

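The receptor families closest to the PDGF receptors were described in the same way. Of 7 genes of the other class III receptor tyrosine kinases and their ligands, 6 passed the floor of 1 TPM, with 1 at least 1.5-fold lower, 0 higher and a median of -0.01 log2 units, Slit1 minus control. Over all genes tested, 4.83% were lower and 3.72% higher by that limit, and the median was -0.05. The lower gene was Kitlg, which encodes stem cell factor, at 37.8 TPM in Slit1 and 67.0 TPM in control (1.77-fold lower, counting interval 1.67 to 1.88). Its receptor gene Kit was scarce, at 2.0 TPM in Slit1 and 1.42 TPM in control.

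Of 8 VEGF ligands and receptors, 5 passed the floor, with 1 lower, 0 higher and a median of 0.28 log2 units. Flt1, a VEGF receptor gene, stood at 2.25 TPM in Slit1 and 4.51 TPM in control (2.0-fold lower, counting interval 1.61 to 2.5). Below the floor, Kdr, the main VEGF-A receptor gene of endothelium, had 42 estimated counts in Slit1 and 12 in control, a ratio of 3.33 (interval 1.72 to 6.96). Kit, Vegfa and Vegfb were named after their values were seen, and none of these differences has a replicate check.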
